A study of Mus musculus with 18 samples.

Results

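Kit, a receptor tyrosine kinase, and Kitl, its ligand (also called stem cell factor), were followed in whole testes of hypogonadal (hpg) male mice given follicle-stimulating hormone (FSH). The members were all probe sets annotated with the single symbol Kit or Kitl, which gave 2 genes of 12393 and 6 probe sets of 22626 tested, 2 for Kit and 4 for Kitl. No probe set that named several genes included either symbol, so 0 were left out for that reason.

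RNA was measured with Affymetrix MOE430A arrays, 1 mouse per array, in 18 mice of 10 weeks. All of them, controls included, carried the hpg genotype, in which gonadotrophin-releasing hormone is lacking. Treated males received recombinant FSH (rFSH, Gonal F), 8 IU in 0.2 ml of phosphate-buffered saline under the skin at intervals of 12 h, over 12 h (4 mice), 24 h (3 mice) or 72 h (4 mice), and were killed 1 h after the final dose. The 7 controls were untreated, so vehicle and handling were not matched. hpg testes hold Sertoli cells, Leydig cells and germ cells of early stages, so the receptor-bearing cells differ in number from those of a fertile testis. Whole testis was used, and fewer cells of a type and less RNA per cell cannot be told apart.

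Kit ligand is made in the testis mainly by Sertoli cells, the FSH-responsive cells that line the tubules. It exists as a form held at the membrane and as a form that is released after cutting, which alternative splicing favours. Kit sits on differentiating spermatogonia, on Leydig cells and on mast cells, and in spermatogonia its signal through phosphoinositide 3-kinase and related enzymes is needed for survival and division before meiosis.

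The annotated genes lie on the mouse assembly GRCm38.p6, Kit at chr5:75574987-75656722 and Kitl at chr10:100015615-100100416, both on the forward strand. The stretch of 250 bases before a RefSeq start site of each gene is shown because calls of Kitl were made at 12 h and a call of Kit at 24 h. The Kit stretch, chr5:75574737-75574986, precedes 1 of 2 starts that RefSeq lists for this gene, and the Kitl stretch, chr10:100015571-100015820, precedes a start that lies inside the annotated gene. Capitals mark the GC box GGGCGG on either strand (CCGCCC when it lies on the other strand) and the TATA box TATAAA.
Kit promoter: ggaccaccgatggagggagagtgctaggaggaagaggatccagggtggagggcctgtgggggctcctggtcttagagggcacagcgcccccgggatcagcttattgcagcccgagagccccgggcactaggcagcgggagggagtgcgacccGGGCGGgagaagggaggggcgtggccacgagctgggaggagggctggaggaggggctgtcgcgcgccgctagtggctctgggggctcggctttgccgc
Kitl promoter: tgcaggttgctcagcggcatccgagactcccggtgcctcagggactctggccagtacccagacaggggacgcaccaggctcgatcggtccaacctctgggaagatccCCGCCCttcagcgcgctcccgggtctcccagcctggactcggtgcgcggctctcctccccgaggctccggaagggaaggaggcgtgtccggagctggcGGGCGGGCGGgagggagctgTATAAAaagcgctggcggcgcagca
Kit had 1 GC box, 98 bases before the start, and no TATAAA. Kitl had 3 GC boxes, at 143, 45 and 41 bases before the start, of which those at 45 and 41 overlap, and a TATAAA at 25 bases. Of 32851 RefSeq stretches of this length, 32.7% held the GC box and 12.4% TATAAA on either strand. The cyclic AMP response element TGACGTCA (1.55% of stretches), its core TGACG (17.8%) and the E-box CANNTG (66.2%) were not among the letters of either stretch. These matches describe letters only. The GC content was 70.8% for Kit and 69.2% for Kitl.

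Technical readings divided the arrays into 2 sets, each with its own controls. The bacterial spike-in Dap read 8.00 to 8.92 on the 12 arrays of 12 h, 72 h and controls 4 to 7 (the spiked arrays) and 2.74 to 3.30 on the 6 arrays of 24 h and controls 1 to 3 (the unspiked arrays). The 18S probe set read 3.35 to 3.70 on the spiked and 9.07 to 11.7 on the unspiked arrays. Between the untreated mice of both sets, 772 of 22626 probe sets (3.41%) differed by limma's test (adjusted p below 0.05). Each change given here is therefore taken against controls of that array set, as the block in the fit does, and 24 h has 3 controls whereas 12 h and 72 h share controls 4 to 7. Array medians lay between 4.44 and 4.63. The 9 measured germ cell markers averaged 8.44 to 9.57 per array and the 14 measured Sertoli markers 8.02 to 8.91, so RNA of both was present in all groups.

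All values are deposited expression values taken as log2, in which a difference of 1 is a doubling. They are read within a probe set only, since brightness does not compare genes. Probe set 1415855_at of Kitl had a mean of 9.91 over all arrays and 1448117_at a mean of 8.48. The Kitl probe sets 1426152_a_at and 1415854_at had means of 3.77 and 3.59, in the range below 4 that held 45.8% of all tested probe sets, where a low value gives only a bound. The Kit probe sets 1452514_a_at and 1415900_a_at had means of 7.07 and 5.82. Which splice form of the ligand each probe set reads was not analysed here.

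At 12 h the ligand's RNA rose and the receptor's did not pass the test. Of the 4 Kitl probe sets 3 were called higher, and of the 2 Kit probe sets 0 were called, in a comparison in which 5.35% of all probe sets were called. A call is an adjusted p below 0.05 in limma, adjusted by Benjamini-Hochberg over all 22626 probe sets. The brightest Kitl probe set stood about 1.95-fold above its controls.

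Kitl 1415855_at read 10.51, 10.43, 10.55 and 10.86 in the 4 mice of 12 h. Controls 4 to 7 read 9.64, 10.05, 9.41 and 9.39. All 4 treated mice lay above all 4 controls. The mean was 10.59 ± 0.19 (SD, n = 4) against 9.62 ± 0.31 (SD, n = 4). The log2 difference was 0.97 ± 0.16 (SE), with a 95% interval of 0.63 to 1.30 and a limma adjusted p of 0.0017. An exact two-sided permutation test gave p = 0.0286, the smallest possible with 4 against 4. The call held without any 1 of the 18 arrays, with limma adjusted p values up to 0.00765.

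Kitl 1448117_at read 8.86, 9.06, 9.29 and 9.63 at 12 h against 7.65, 8.86, 7.59 and 8.35 in controls 4 to 7. The groups met at 8.86, where control 5, also the highest control on 1415855_at, reached the lowest treated mouse. The difference was 1.09 ± 0.29 (SE), a 2.13-fold rise, with a limma adjusted p of 0.0421 and an exact permutation p of 0.0571. This call lay near the threshold: leaving out 1 array ended it for 11 of the 18 arrays, with limma adjusted p values of 0.0511 to 0.13 and differences of 0.92 to 1.17.

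Both dim Kitl probe sets also had higher means at 12 h. Kitl 1415854_at read 4.14, 3.60, 3.95 and 4.81 against 2.62, 3.51, 3.25 and 3.03 in controls 4 to 7, with no overlap. Its difference was 1.03 ± 0.24 (SE; limma adjusted p = 0.0193; exact permutation p = 0.0286), and the call was lost without mouse 4 of 12 h (0.80, adjusted p = 0.0502), control 4 (0.87, adjusted p = 0.0625) or control 7 (1.0, adjusted p = 0.0537). Kitl 1426152_a_at was uneven, since mice 3 and 4 of 12 h read 5.59 and 4.76 while mice 1 and 2 read 3.65 and 3.55, close to the controls at 3.51, 3.53, 3.55 and 3.55. Its difference of 0.85 ± 0.33 (SE) did not pass the test (limma adjusted p = 0.196).

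Kit 1452514_a_at read 7.75, 7.20, 7.21 and 7.18 at 12 h and 8.25, 7.98, 7.13 and 7.12 in controls 4 to 7. The groups overlapped, and the controls alone spanned 1.12. The difference was -0.29 ± 0.28 (SE), with a 95% interval of -0.90 to 0.32 (limma adjusted p = 0.84). Kit 1415900_a_at read 5.36, 5.68, 5.85 and 5.30 against 5.82, 6.14, 5.67 and 5.08, a difference of -0.13 ± 0.27 (SE; limma adjusted p = 1). A receptor change of the size of the ligand's rise, in the upward direction, lay outside both intervals, whose upper ends were 0.32 and 0.45.

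**Figure D1:**
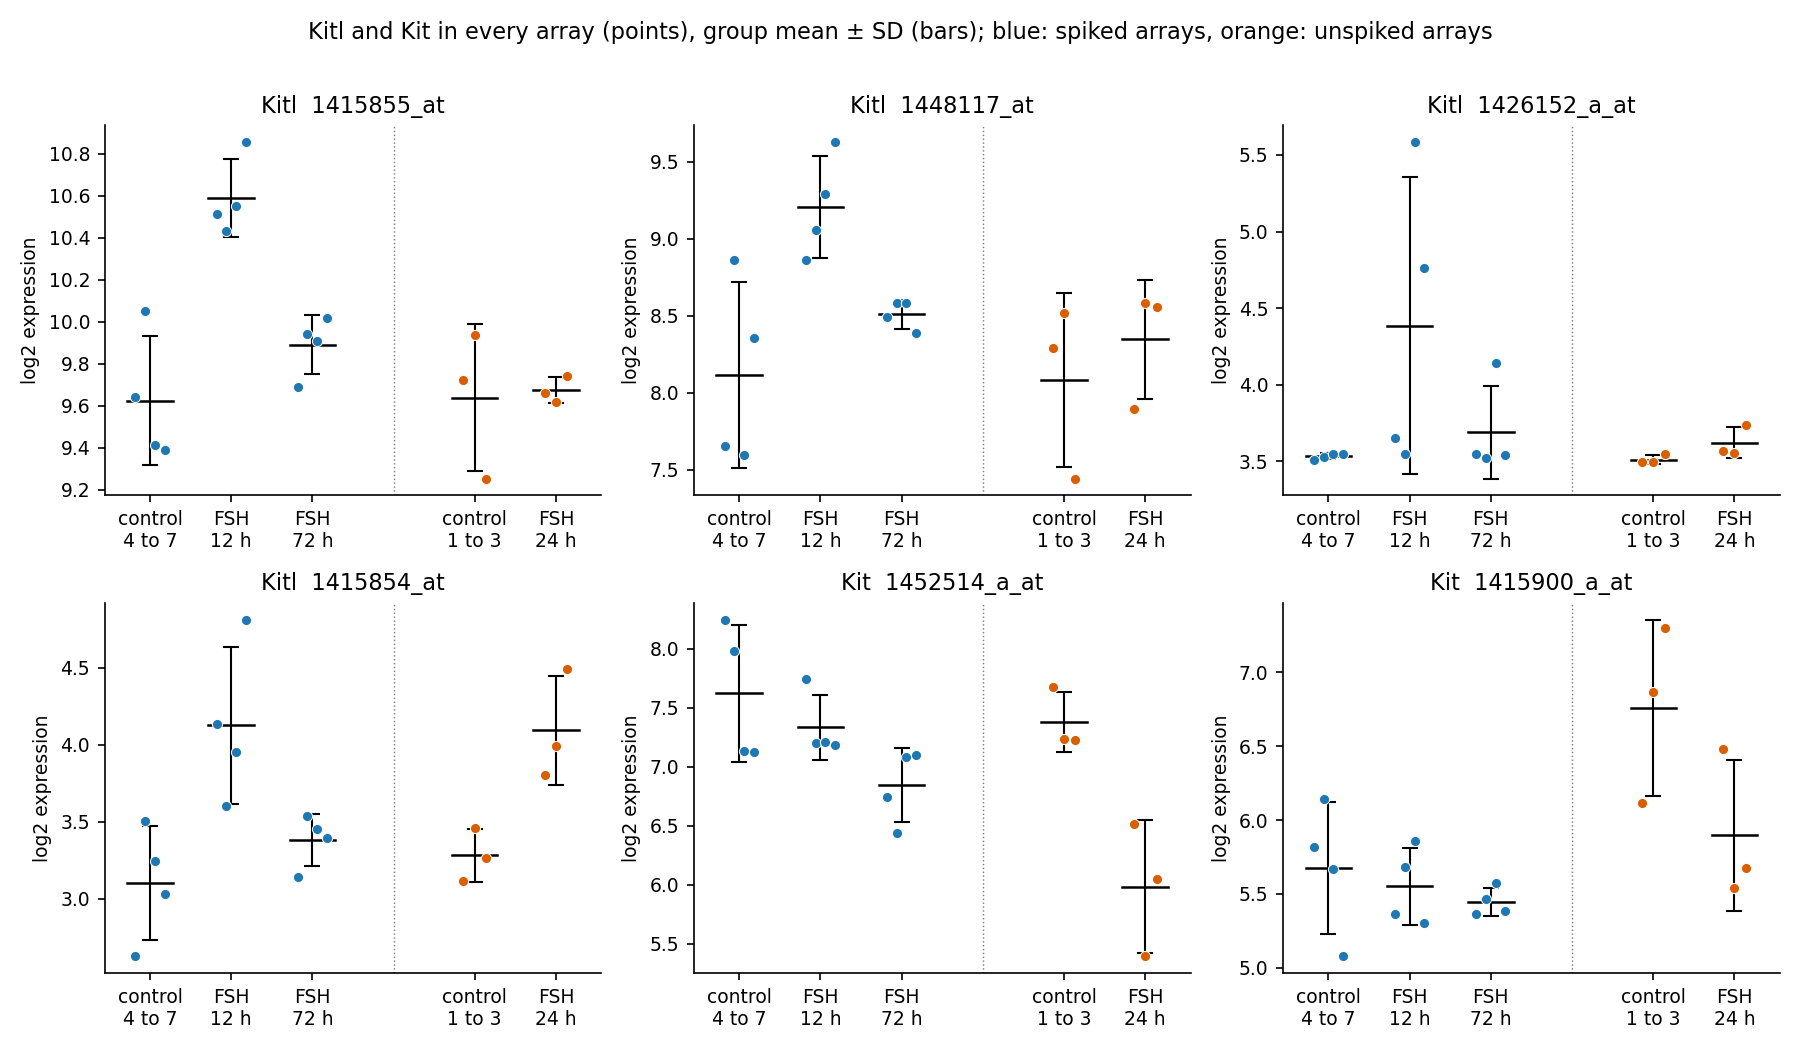
Deposited log2 expression of the 4 Kitl and 2 Kit probe sets in each of 18 arrays (points), with the mean (line) and SD (bars) per group, spiked arrays in blue and unspiked arrays in orange. Kitl 1415855_at was highest in the 4 mice of 12 h (10.43 to 10.86), and Kit 1452514_a_at had its lowest group mean in the 3 mice of 24 h (5.40 to 6.52).

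At 24 h the receptor's brighter probe set fell and no Kitl probe set was called. In all, 1 of the 6 probe sets was called, and 13.4% of all probe sets were called in this comparison, so the count itself is near the background. Kit 1452514_a_at stood 2.62-fold below its controls, while Kitl 1415855_at was within 0.04 of them.

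Kit 1452514_a_at read 6.52, 5.40 and 6.05 in the 3 mice of 24 h. Controls 1 to 3 read 7.67, 7.23 and 7.23. All treated mice were lower than all controls, and mice 2 and 3 were the lowest of the 18 arrays. The difference was -1.39 ± 0.33 (SE), with a 95% interval of -2.09 to -0.69 and a limma adjusted p of 0.0126. An exact permutation test gave p = 0.1, the smallest that 3 against 3 allows. The call was lost without mouse 2 of 24 h (-1.10, limma adjusted p = 0.0588) and without control 1 (-1.24, adjusted p = 0.0599), and in a fit of the 6 unspiked arrays alone (-1.39, adjusted p = 0.115).

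Kit 1415900_a_at read 6.48, 5.54 and 5.67 at 24 h and 6.12, 6.87 and 7.30 in controls 1 to 3. Mouse 1 of 24 h lay above control 1, so the groups overlapped. The difference of -0.86 ± 0.31 (SE) had a limma adjusted p of 0.08 and did not pass. It passed without mouse 1 of 24 h (-1.16, limma adjusted p = 0.0236), without control 1 (-1.18, adjusted p = 0.0309) and with the filter on low values (-0.86, adjusted p = 0.0489). Leaving out control 1 thus ended the call of 1452514_a_at and made one of 1415900_a_at. On this probe set the untreated mice of the unspiked arrays averaged 6.76 and those of the spiked arrays 5.68 (limma adjusted p = 0.167), whereas on 1452514_a_at they averaged 7.38 and 7.62. Its 3 readings at 24 h lay within the range of controls 4 to 7 (5.08 to 6.14) or, for mouse 1, above it.

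RNA measures were also compared between the 24 h mice and their controls. The GAPDH 3' minus 5' log2 difference, a measure of RNA integrity, was -0.50, -0.63 and -0.57 at 24 h and -0.29, -0.16 and -0.43 in controls 1 to 3, without overlap. The same measure for actin overlapped, at 0.82, 1.08 and 1.04 against 1.10, 1.07 and 0.90. Control 1 had an 18S reading of 9.07, whereas controls 2 and 3 read 11.7 and the 24 h mice 11.0 to 11.2. Their part in the fall of Kit was not tested.

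Kitl 1415855_at read 9.66, 9.62 and 9.74 at 24 h, inside the range of controls 1 to 3 at 9.72, 9.94 and 9.25. The difference was 0.04 ± 0.18 (SE), with a 95% interval of -0.35 to 0.43 (limma adjusted p = 0.913), so a change of the size seen at 12 h lay outside the interval. Kitl 1448117_at read 7.90, 8.58 and 8.56 against 8.29, 8.52 and 7.44 (difference 0.26, limma adjusted p = 0.612). The dim probe set 1415854_at did not follow them. It read 3.80, 3.99 and 4.49 at 24 h and 3.12, 3.46 and 3.26 in controls 1 to 3, without overlap, and its difference of 0.81 ± 0.27 (SE) missed the threshold (limma adjusted p = 0.0631; exact permutation p = 0.1). Kitl 1426152_a_at read 3.56 to 3.74 at 24 h and 3.49 to 3.55 in controls 1 to 3 (limma adjusted p = 0.87).

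After 72 h neither gene passed the test, with 0 of 6 probe sets called against 6.13% of all probe sets in that comparison. By limma's unadjusted p, 1 of the 6 was below 0.05, near the background of 3738 of 22626 probe sets. By the exact permutation test 1 of the 6 was below 0.05 as well, in both cases Kit 1452514_a_at. It read 6.75, 6.44, 7.08 and 7.10, all below the lowest of controls 4 to 7, at 7.12. The difference was -0.78 ± 0.28 (SE; 95% interval -1.39 to -0.17; limma adjusted p = 0.144; exact permutation p = 0.0286). The gap between the highest treated mouse and the lowest control was small, 7.10 against 7.12. Kit 1415900_a_at, at 5.37, 5.47, 5.57 and 5.38, lay within the range of its controls (difference -0.23, limma adjusted p = 0.871).

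The mean of each Kitl probe set at 72 h lay between those of 12 h and of controls 4 to 7. Kitl 1415855_at read 9.69, 9.94, 9.91 and 10.02, within the range of controls 4 to 7, and differed from them by 0.27 ± 0.16 (SE; 95% interval -0.07 to 0.60; limma adjusted p = 0.48). Kitl 1448117_at read 8.49, 8.58, 8.58 and 8.39 (difference 0.39, limma adjusted p = 0.631), with a range of only 0.20 where its controls spanned 1.27. Kitl 1415854_at read 3.14 to 3.54 and did not differ beyond its spread (0.28, limma adjusted p = 0.724). Kitl 1426152_a_at read 3.52 to 3.55 in 3 mice and 4.14 in mouse 3 (0.16, limma adjusted p = 0.928).

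**Figure D2:**
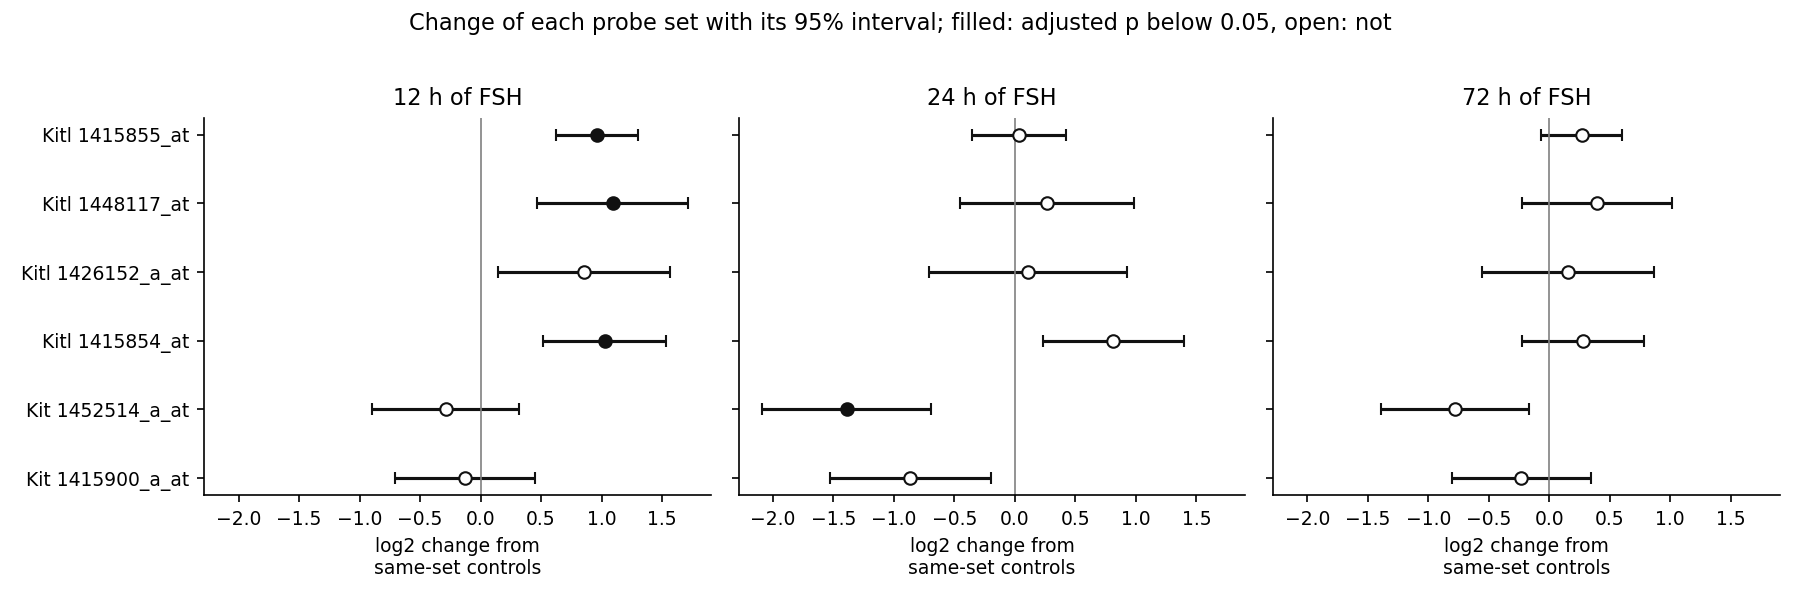
Log2 change of each probe set from the controls of its own array set after 12, 24 and 72 h of FSH (points) with 95% intervals from limma (bars), filled where the adjusted p was below 0.05. The filled points are 3 Kitl probe sets at 12 h (0.97, 1.09 and 1.03) and 1 Kit probe set at 24 h (-1.39).

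The times were also compared with each other. Between 12 h and 72 h, which lie in 1 array set, 1 of 6 probe sets was called, against 2.36% of all probe sets. Kitl 1415855_at was lower at 72 h than at 12 h by a log2 difference of -0.70 ± 0.16 (SE; limma adjusted p = 0.0307; exact permutation p = 0.0286), and all 4 mice of 72 h lay below all 4 of 12 h. That call was lost when any 1 of 7 arrays was left out, namely mice 1, 3 and 4 of 12 h and mice 1 to 4 of 72 h, with limma adjusted p values of 0.051 to 0.106 and differences of -0.74 to -0.61. Kitl 1448117_at and 1415854_at differed by -0.70 and -0.75, and their groups did not overlap either, but the limma adjusted p values were 0.349 and 0.148. Kit 1452514_a_at differed by -0.49 (limma adjusted p = 0.637), and all its 72 h mice lay below all its 12 h mice.

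The 24 h changes were set against the others after each was taken from its own controls. Between 24 h and 12 h, 0 of 6 probe sets were called in limma, with 2 of 6 at an unadjusted p below 0.05, and 0.875% of all probe sets were called. Of all 22626 probe sets, 3729 had an unadjusted limma p below 0.05. The change of Kitl 1415855_at was lower at 24 h than at 12 h by -0.93 ± 0.24 (SE; limma adjusted p = 0.088), and it passed the threshold without control 3 (-1.12, adjusted p = 0.0235) or control 5 (-1.07, adjusted p = 0.031). The change of Kit 1452514_a_at was lower by -1.10 ± 0.43 (SE; limma adjusted p = 0.242). Between 72 h and 24 h, 0 of 6 were called in limma and 0 of 6 had an unadjusted p below 0.05, against 0.371% of all probe sets called. Here 2560 of 22626 probe sets had an unadjusted limma p below 0.05. That the ligand rose at 12 h and was not called at 24 h, and that the receptor did the converse, is therefore not shown as a difference between those times.

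Within each array the brightest Kit reading was taken from the brightest Kitl reading, which removes what is common to an array and asks whether ligand and receptor changed unequally. This log2 difference was 2.77, 3.24, 3.34 and 3.67 at 12 h and 2.95, 3.50, 2.83 and 2.91 at 72 h, against 1.40, 2.07, 2.28 and 2.27 in controls 4 to 7. It was 3.15, 4.23 and 3.70 at 24 h, against 2.05, 2.71 and 2.03 in controls 1 to 3. At each time all treated mice lay above all their controls.

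The difference of means was 1.25 at 12 h (3.25 ± 0.37 against 2.0 ± 0.42, SD, n = 4 each) and 1.05 at 72 h (3.05 ± 0.31 against the same controls). Both had an exact permutation p of 0.0286, or 0.0572 after Benjamini-Hochberg adjustment over the 4 comparisons made. At 24 h it was 1.43 (3.69 ± 0.54 against 2.26 ± 0.39, SD, n = 3 each), with an exact permutation p of 0.1, the smallest possible, and an adjusted p of 0.133. The 72 h and 12 h values differed by -0.21 (exact permutation p = 0.429). Without control 4, the lowest control, the 12 h difference was 1.05 with an exact permutation p of 0.0571. The ligand's change was 0.97 and the receptor's -0.29 after 12 h. After 24 h they were 0.04 and -1.39, and by 72 h 0.27 and -0.78.

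**Figure D3:**
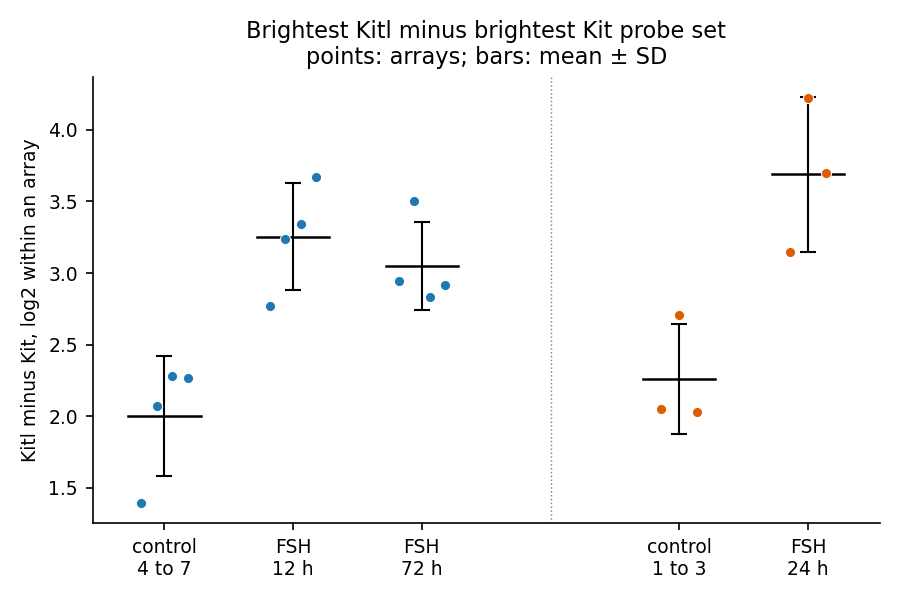
Log2 reading of Kitl 1415855_at minus that of Kit 1452514_a_at within each array (points), with group mean and SD (bars), spiked arrays in blue and unspiked arrays in orange. The treated arrays sit at 2.77 to 4.23 and the controls at 1.40 to 2.71.

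Over the 18 arrays, after the mean of the same-set controls was taken off, Kitl 1415855_at and 1448117_at had a Pearson correlation of 0.871, and the Kit probe sets one of 0.652. Kit 1452514_a_at and Kitl 1415855_at had a correlation of 0.149. The points share groups and arrays, so these are descriptions. Among 6898 genes with a probe set above the median brightness, those most like Kitl were Lpar3, a lysophosphatidic acid receptor (0.935), Hmgcs1, an enzyme of cholesterol synthesis (0.924), Tle5, a transcriptional corepressor (0.913), Col4a1, a basement membrane collagen (0.908), and Adipor2, an adiponectin receptor (0.901). Their 12 h rises were 0.79, 0.92, 0.84, 2.95 and 1.04 (limma adjusted p of at most 0.00691). The genes most and least like Kitl were picked over these same arrays. Their 12 h changes thus follow largely from that choice and add no support. Col4a1 was also called at 72 h (1.65, adjusted p = 0.000944). Those least like Kitl were Fancg (-0.942) and Rad51c (-0.855), both DNA repair genes, and Ppp3cc, a calcineurin subunit (-0.853), with 12 h changes of -0.59, -0.68 and -0.82.

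Those most like Kit 1452514_a_at were Oga, which removes O-linked N-acetylglucosamine from proteins (0.943), Marchf7, a ubiquitin ligase (0.942), Osbpl1a, an oxysterol-binding protein (0.922), Rif1, a factor of replication timing (0.921), and Fam76b (0.918). Their 24 h changes were -0.95, -0.87, -0.50, -0.49 and -0.70, of which that of Rif1 was not called (limma adjusted p = 0.0608). Those least like Kit were Surf4 (-0.9), Rangap1 (-0.868) and Serp1 (-0.858), with 24 h rises of 0.60, 1.04 and 0.94. These genes too were picked over the same arrays, so their 24 h changes follow largely from that choice.

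The cells that carry the receptor were read through their markers. Of 7 measured markers of differentiating spermatogonia, 4 fell at 24 h and 1 at 72 h, and 0 rose, while limma called 0 at 12 h. The share called was 57.1% at 24 h and 14.3% at 72 h, against 13.4% and 6.13% of all probe sets. The median change of the list was -0.33, -0.88 and -0.50 at 12, 24 and 72 h, against at most 0.04 in size over all probe sets. The 4 that fell at 24 h were Dnmt3b, a DNA methyltransferase (-1.11 ± 0.19 SE), Tex14, a protein of germ cell bridges (-0.88 ± 0.16), Stra8, which retinoic acid induces before meiosis (-1.06 ± 0.20), and Elavl2, an RNA-binding protein (-1.11 ± 0.26), with limma adjusted p values of 0.00173, 0.00304, 0.00353 and 0.0122. Stra8 was also lower at 72 h (-1.03 ± 0.18, adjusted p = 0.00239). The list's mean level per array was 6.48 to 6.65 at 24 h and 7.15 to 7.31 in controls 1 to 3. In controls 4 to 7 it was 7.50 to 7.69, against 7.16 to 7.32 in mice of 12 h and 6.92 to 7.08 in mice of 72 h. The arrays of each treated group thus lay below their own controls, and what part this has in the Kit readings was not tested.

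Markers of germ cells in general gave other counts. Of 9 measured, 0 were called at 24 h or 72 h in limma and 1 fell at 12 h, the meiotic recombinase gene Dmc1 (-0.58 ± 0.14 SE, adjusted p = 0.0267). A second Dmc1 probe set was not called at 12 h (-0.64, limma adjusted p = 0.14). The share called was 11.1%, 0% and 0% at 12, 24 and 72 h, beside 5.35%, 13.4% and 6.13% of all probe sets. Dazl was not called at 24 h on its brightest probe set (-0.39, limma adjusted p = 0.145), but a second one was lower (-0.58, adjusted p = 0.00905). In a fit of the unspiked arrays alone, 1 of these markers fell at 24 h and 0 markers of differentiating spermatogonia were called. The list's mean level was 8.50 to 9.52 at 24 h, overlapping controls 1 to 3 at 8.97 to 9.57. Of 15 measured markers of undifferentiated spermatogonia, 3 fell after 24 h, 2 after 72 h and 1 after 12 h, and 0 rose. Their shares of 20%, 13.3% and 6.67% stood beside 13.4%, 6.13% and 5.35% of all probe sets, so the 12 h count is near the background. The members called were Sall4, a transcription factor (-0.65, -1.10 and -1.03 at 12, 24 and 72 h), Lin28a, an RNA-binding protein (-1.09 at 24 h and -1.11 at 72 h), and Foxo1 (-0.67 at 24 h). A second Lin28a probe set had a 24 h change of -0.11 (limma adjusted p = 0.45).

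Among markers of Leydig cells, which carry Kit too, some steroidogenic genes had higher RNA in the whole testis. Of 10 measured markers 3 rose after 12 h, 4 after 24 h and 1 after 72 h. In the other direction 1 was called, Ephx1 at 72 h (-0.74 ± 0.18 SE). The list's share called was 30%, 40% and 20% over these times, where that of all probe sets was 5.35%, 13.4% and 6.13%. Cyp17a1, which makes androgen precursors, had changes of 2.86 ± 0.41 after 12 h and 4.62 ± 0.47 after 24 h, both called. Star, a mitochondrial cholesterol transporter, was higher by 2.53 ± 0.27 and 2.50 ± 0.32, Cyp11a1, which starts steroid synthesis, by 4.03 ± 0.84 at 24 h, and Scarb1, a lipoprotein receptor, by 0.47, 0.62 and 0.64 at 12, 24 and 72 h (limma adjusted p below 0.05 for each). Scarb1's other probe sets were called at 12 h and 72 h but not at 24 h (0.26 and 0.27, limma adjusted p = 0.364 and 0.241). Hsd3b1 was not called at any of the 3 times (-0.21, -0.52 and -0.18). The list's mean level per array was 7.93 to 8.14 at 24 h against 7.07 to 7.40 in controls 1 to 3, without overlap, while the list's median change was 0.47, -0.19 and 0.29 at 12, 24 and 72 h. The 4 Leydig members called at 24 h had changes of 0.62 to 4.62, and the other 6 were not called.

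Mast cell markers were near the floor. Of 12 measured, 10 had means below 4, among them the proteases Cpa3 and Cma1 and the IgE receptor genes Fcer1a and Ms4a2, at 2.07 to 2.66. The member called was Hdc, histidine decarboxylase, at all 3 times (1.98, 1.72 and 2.86), which is 8.33% of the list each time. Of all probe sets, 5.35%, 13.4% and 6.13% were called at 12, 24 and 72 h. The list's mean level per array was 2.94 to 3.27 over all 18 arrays.

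**Figure D4:**
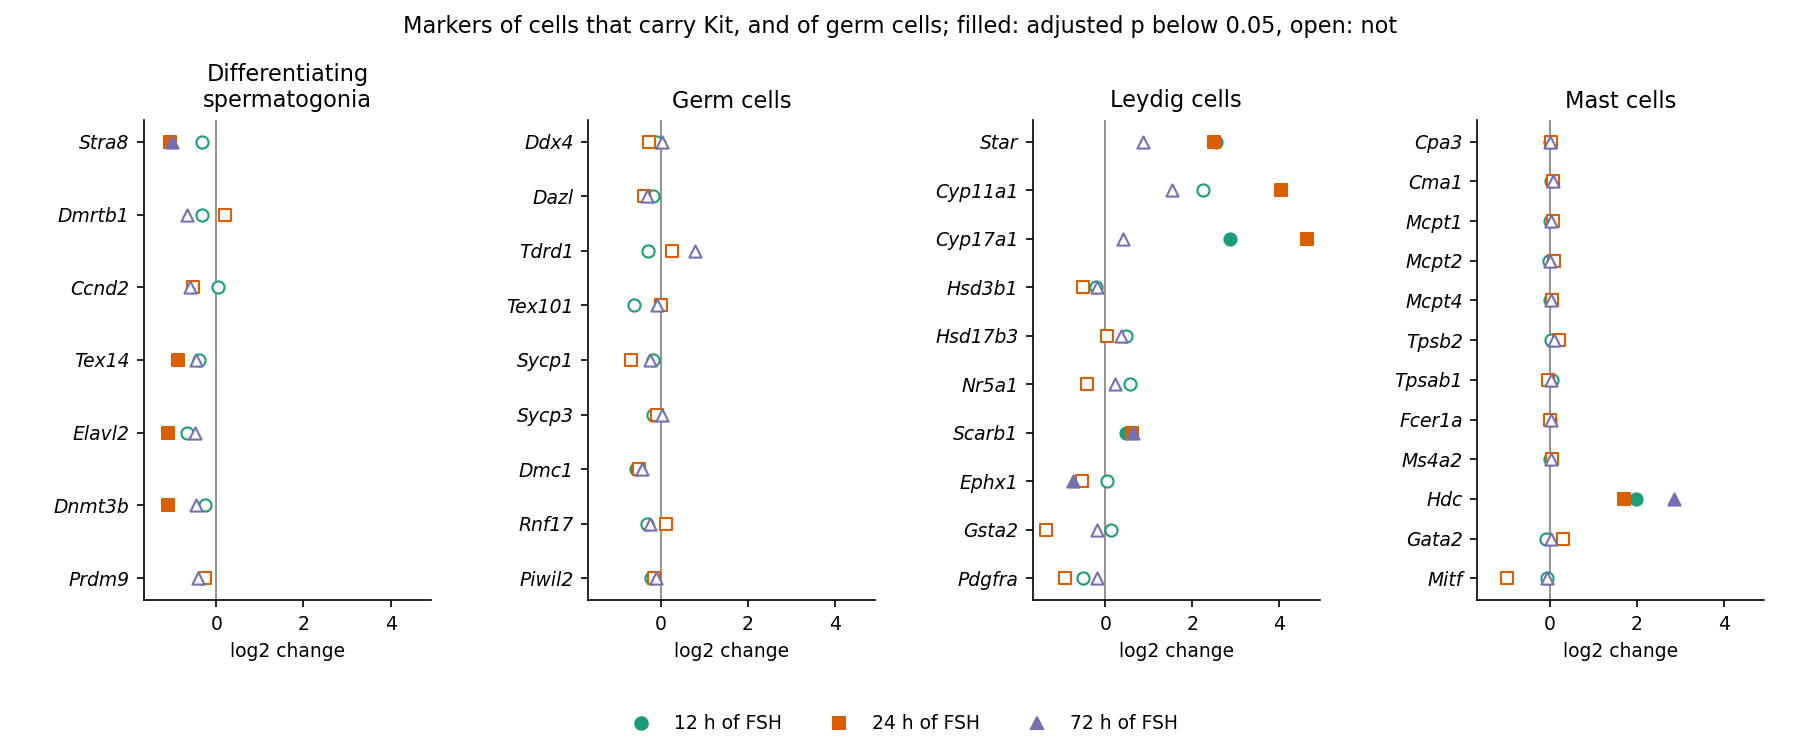
Log2 change from same-set controls of the markers of differentiating spermatogonia (7 genes), germ cells (9), Leydig cells (10) and mast cells (12) at 12 h (circles), 24 h (squares) and 72 h (triangles), filled where limma's adjusted p was below 0.05. At 24 h, 4 of the 7 spermatogonial markers were lower and 4 of the 10 Leydig markers higher, whereas 0 of 9 germ cell markers were called. Each gene is shown on its brightest probe set only, and a second Dazl probe set was lower at 24 h (-0.58).

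The ligand's source, Sertoli cells, was checked by its hormone-responsive genes. Inha, the inhibin alpha subunit, rose by 1.87, 1.75 and 1.94 (SE 0.11 to 0.13) over 12, 24 and 72 h, and Fshr, the FSH receptor, fell (-1.10, -1.24 and -1.11). Of 14 measured Sertoli markers, 4 rose and 1 fell at 12 h. The counts were 2 and 2 at 24 h, and 5 and 1 at 72 h. That is 35.7%, 28.6% and 42.9% of the list, beside 5.35%, 13.4% and 6.13% of all probe sets. Clu, also on the list, was not called on its brightest probe set (-0.26 at 12 h, limma adjusted p = 0.359). Its other probe sets were lower at 12 h (-0.60, -0.54 and -0.50, adjusted p = 0.00122, 0.0052 and 0.0133). Those with -0.60 and -0.50 were lower at 24 h too (-0.72 and -0.50, adjusted p = 0.000652 and 0.0188). Besides Inha, the inhibin subunit gene Inhbb (0.85 and 0.72) and Dhh were higher at 12 h and 72 h, and Cldn11, a tight junction gene, at 12 h (0.76). A second probe set of Inhbb (0.28 and 0.22) and of Dhh (0.57 and 0.97) was not called at 12 h or 72 h (limma adjusted p of 0.134 to 0.689). Rhox5, a homeobox gene, was higher at 24 h (4.13) and 72 h (4.27) and not at 12 h (-0.82, limma adjusted p = 0.38), and Tsx at 72 h (2.33). Kitl was called at 12 h and at neither later time, whereas Inha was called at all 3 and Rhox5 at 24 h and 72 h. Endothelial cells can make the ligand too, and of their 9 markers 1 fell at 12 h (Vwf, -0.63), and 0 were called in limma at 24 h or 72 h. The endothelial share at 12 h was 11.1%, beside 5.35% of all probe sets.

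Proteins that cut the membrane form of the ligand, and their inhibitors, were measured for 11 genes. In limma 0 were called at 12 h, while 1 fell at 24 h. By 72 h 2 rose and 1 fell. The share called was 9.09% at 24 h, below the 13.4% of all probe sets, and 27.3% at 72 h against 6.13%. Timp3, an inhibitor of metalloproteinases, changed by -1.96 ± 0.26 (SE) at 24 h and -1.40 ± 0.23 at 72 h, both falls (limma adjusted p = 0.000257 and 0.00165). Timp2, an inhibitor of the same family, was not called on the brightest of its 6 probe sets (0.24 at 24 h and 0.22 at 72 h). The second brightest Timp2 probe set was higher by 1.27 and 1.11 at those times (limma adjusted p = 0.000219 and 0.000283), and another Timp2 probe set by 0.78 and 0.48 (adjusted p = 0.00235 and 0.0295). A further Timp2 probe set was called at 72 h alone (0.38, limma adjusted p = 0.049). The metalloproteinase genes Adam9 (1.11 ± 0.25, adjusted p = 0.0157) and Mmp14 (0.61 ± 0.16, adjusted p = 0.0363) were higher at 72 h. A further 3 probe sets of Timp3 had 24 h changes of -1.43, -0.91 and -0.48, the last not called.

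Of genes for signalling below the receptor, 36 were measured in whole testis, of which 1 rose at 12 h and 4 fell at 24 h. By 72 h 2 were higher and 1 was lower. The share called, 2.78%, 11.1% and 8.33%, was close to that of all probe sets. The 4 that fell at 24 h were Jak2, a tyrosine kinase (-1.62 ± 0.24 SE), Foxo1, a transcription factor restrained by this pathway (-0.67 ± 0.13), Pik3r2, a regulatory subunit of phosphoinositide 3-kinase (-0.67 ± 0.15), and Stat5b, a signal transducer (-0.97 ± 0.29). Jak2 was lower at 72 h as well (-0.91 ± 0.21). The gene that rose at 12 h was Map2k2, a kinase of the mitogen-activated cascade (0.46 ± 0.12), which with Prkca (0.93 ± 0.22, a dim probe set) rose at 72 h (0.52 ± 0.12). A second Map2k2 probe set was called at 24 h (1.155, limma adjusted p = 0.0229) and not at 12 h or 72 h (0.18 and 0.07). The rises at 12 h and 72 h were not kept in a fit of the spiked arrays alone. There 0 signalling genes were called higher at either time, while 1 was called lower at 12 h and 3 at 72 h. With limma's intensity trend and robust prior, 0 were called at 12 h. The signalling genes are used by many receptors, and which cells their RNA came from was not tested.

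Factors described as raising or lowering Kit in spermatogonia numbered 11 measured, of which 1 fell after 12 h, 4 after 24 h and 3 after 72 h, and 0 rose. At 24 h these were Sall4, Stra8 and Lin28a, given above, and Dmrt1, a transcription factor of Sertoli and germ cells (-0.62 ± 0.15 SE, limma adjusted p = 0.0153). The list's share called at 24 h was 36.4% against 13.4% of all probe sets, and its median -0.26, but 3 of the 4 are also on a spermatogonial marker list.

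Among other receptors of Kit's class and their ligands, 9 were measured, of which 22.2% were called at each time. Of all probe sets, 5.35%, 13.4% and 6.13% were called at 12, 24 and 72 h. Csf1r, a macrophage receptor, was lower at 12 h (-0.85 ± 0.17 SE) and 24 h (-0.73 ± 0.20), and its other 2 probe sets were not called. Its ligand Csf1 was higher at 72 h (1.03 ± 0.28). Pdgfc, a platelet-derived growth factor, fell at all times, with changes of -1.72 ± 0.18, -1.39 ± 0.20 and -1.08 ± 0.18 (limma adjusted p = 3.26e-05, 0.000577 and 0.00182).

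Kitl was set beside 16 other ligands of somatic cells, not all of which act on germ cells. At 12 h 2 rose, Dhh (0.69 ± 0.15 SE) and Vegfa (0.85 ± 0.15, a dim probe set), and 0 fell. A second, dimmer Vegfa probe set was not called at 12 h (0.14, limma adjusted p = 0.839). Of the 16 ligands 2 rose and 2 fell after 24 h, and 3 rose and 2 fell after 72 h. These are 12.5%, 25% and 31.2% of the ligands, beside 5.35%, 13.4% and 6.13% of all probe sets. Igf1, an insulin-like growth factor, was higher after 24 h (2.27 ± 0.26) and 72 h (1.74 ± 0.22), and Cxcl12, a chemokine, lower (-1.82 ± 0.36 and -1.39 ± 0.31). The others called were Lif (0.16, a dim probe set) and Pros1 (-0.89) at 24 h, and Csf1 (1.03) and Gdnf (-0.87, a dim probe set) at 72 h. Dhh, a hedgehog ligand of Sertoli cells, was also higher at 72 h (0.64 ± 0.15), though its second probe set, given above, was not called. Wnt5a was not called at 24 h on its brightest probe set (-0.50, limma adjusted p = 0.31), but a second probe set was lower (-1.40, adjusted p = 0.000652). Of the 23 measured receptors of these ligands, 1 rose (Cxcr4, 2.17) and 2 fell (Csf1r and Erbb3, the latter dim at -2.09) after 12 h. After 24 h 5 fell, Csf1r among them, and after 72 h 1 did (Erbb3, -2.28). The receptors' shares called were 13% and 21.7% after 12 h and 24 h, above those of all probe sets, and 4.35% after 72 h, below the 6.13% of all. The median at 24 h was -0.62 against 0.04 over all probe sets, and the members with the smallest p were Ptch1, the hedgehog receptor (-2.48 ± 0.27), Il6st, a cytokine receptor subunit (-1.29 ± 0.22), Axl, a receptor tyrosine kinase (-0.82 ± 0.17), and Bmpr1a, a bone morphogenetic protein receptor (-0.70 ± 0.15).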

How the data were processed

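Expression of each probe set in 18 arrays was read from a table the authors deposited. RMA and GCRMA are both named by the submitters' processing notes, and which was used, with what version, is not given in the sources used here. No scale or base is stated, so the authors' values, 1.04 to 15.2, were judged to be log2 by range and kept unchanged. Per the labels' protocols, 8 micrograms of RNA per mouse were labelled for the array. Of 22690 probe sets, 64 control probe sets were left out, and 22626 were tested without a filter. Names came from GEO's platform annotation, in which 20380 had 1 symbol, 691 several and 1555 none, and probe sets without 1 symbol were not named. Correlations between arrays were 0.945 to 0.997, so no array was a duplicate.

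Tests across probe sets used limma 3.58.1 under R 4.3.3 (lmFit and eBayes, a mean per group and the array set as a block, 13 residual degrees of freedom, two-sided, Benjamini-Hochberg adjustment). Exact two-sided permutation tests were run on single probe sets, with no adjustment. The script was tested on simulated data. The number of arrays limits the precision. Whether same-numbered arrays deviate together was checked: on the unspiked arrays the correlation of their deviations was 0.179 to 0.406 for same numbers and -0.355 to 0.0679 for others, so the numbers met the rule for pairing from the data alone. The labels state no pairing, and the tests reported are unpaired. With a replicate block as an alternative, Kit 1452514_a_at kept its 24 h call in the fit of all arrays (limma adjusted p = 0.00724) and was not called in the unspiked arrays alone (0.0882, or 0.115 without the block).

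The members, lists and rule for names were chosen with earlier results of these data known. Each list was read on the brightest probe set per gene. The 15 lists held 208 genes, 183 of them measured, and some share genes. Named were all Kit and Kitl probe sets; of each list at most 4 members, those of smallest p when most were called, and other called members of lists of up to 12; the 5 genes most and 3 least correlated with each member; and Fshr and Inha. Map2k2, Prkca, Vegfa, Lif, Pros1, Gdnf, Cxcr4, Erbb3, Inhbb, Cldn11, Hsd3b1 and the further Lin28a, Timp2, Timp3 and Csf1r probe sets were named after their values were seen. So were Clu, Dazl, Wnt5a and the further Scarb1, Vegfa, Map2k2, Inhbb, Dhh and Dmc1 probe sets. Alternatives covered the block, array set, replicate number, scaling, filter, prior and each array left out. Promoter stretches are RefSeq's (GRCm38.p6). Some chosen markers are not analysed here.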

Additional observations from a re-analysis of the deposited data

Results flagged for a closer look

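Kit 1452514_a_at read 7.75 in mouse 1 of 12 h, apart from the other 3 mice of that group at 7.18 to 7.21, a gap of 0.95 of the group's range. Kitl 1426152_a_at read 4.14 in mouse 3 of 72 h, apart from the other 3 at 3.52 to 3.55, a gap of 0.961 of the range. Groups of 4 were tested in this way, 18 in all, and chance sets apart about 1 in 20 of them. Kitl 1415855_at differed between 72 h and 12 h of FSH by -0.70 (limma adjusted p = 0.0307), a call that was lost without any 1 of 7 arrays.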

How the results depend on the processing

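No called value of Kit, Kitl or their difference changed sign under any alternative. The 12 h rise of Kitl 1415855_at lay between 0.88 and 1.11 when 1 array was left out. The fall of Kit 1452514_a_at at 24 h lay between -1.66 and -1.10. Its call was lost in the unspiked arrays alone (-1.39, adjusted p = 0.115) and, in a setting chosen after seeing the data, in those arrays with a replicate block (-1.39, adjusted p = 0.0882). That last setting called 0 of 22626 probe sets in limma, with 4957 at an unadjusted p below 0.05, and the unspiked arrays without the block called 393.

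Without the array set block, 8137 probe sets were called at 24 h, 64.9% of them higher, against 45.7% of 3023 with it. The comparisons of 24 h with 12 h and of 72 h with 24 h then gave 9098 and 7001 calls. Of these, 67% and 38.1% were higher. Both comparisons called Kit 1452514_a_at (-1.35 and 0.86). The first also called Kitl 1415855_at (-0.92) and 1448117_at (-0.86, limma adjusted p = 0.0354). The second also called Kitl 1415854_at (-0.71, limma adjusted p = 0.0434), as did 24 h against the controls (0.92, adjusted p = 0.00817). Without the block these comparisons hold the difference between the array sets.

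With the replicate block beside the array set, counts were 255 at 12 h, 244 at 72 h, 324 for 72 h minus 12 h, 52 for 24 h minus 12 h and 43 for 72 h minus 24 h. Kitl 1415855_at at 12 h was then 1.15 (adjusted p = 0.075) and Kit 1452514_a_at at 24 h -1.39 (adjusted p = 0.00724). Controls 5 to 7 have no treated partner of the same number, so this block takes them out of the comparison. Same-numbered spiked arrays of 12 h and 72 h correlated at 0.0133 to 0.13, and 2 of 4 correlated best with their own number, so they share only a number. With the filter on low values, 72 h minus 24 h gave 40 calls.

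With 1 array left out, counts were 877 to 1278 at 12 h, 1678 to 3848 at 24 h (the lowest without control 1), 994 to 1456 at 72 h, 290 to 579 for 72 h minus 12 h, 94 to 756 for 24 h minus 12 h and 46 to 399 for 72 h minus 24 h. The difference of Kitl 1415855_at between 72 h and 12 h was then -0.75 to -0.61, and that between 24 h and 12 h -1.12 to -0.78. Kitl minus Kit was 1.05 to 1.41 at 12 h, 1.16 to 1.70 at 24 h and 0.84 to 1.14 at 72 h, and against all 7 controls 1.58 at 24 h (exact permutation p = 0.00833). The 7 controls mix both array sets, so that p also holds the difference between the sets. Against the controls of its own set the exact permutation p was 0.1. List counts moved by more than 1.5 times in 233 of 1140 repeats. For probe sets near the floor the signal limits what can be seen.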

Other observations

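Of 11 macrophage genes 2 rose at 72 h, Cd68, a lysosomal protein (1.34 ± 0.19 SE, limma adjusted p = 0.000583), and Mrc1, a mannose receptor (0.79 ± 0.16, adjusted p = 0.00801), while at 24 h 1 rose (Itgam, 0.16, a dim probe set) and 1 fell (Csf1r). The share called was 18.2% at both times, against 6.13% of all probe sets at 72 h and 13.4% at 24 h. Of 8 peritubular myoid genes, 2 rose at 12 h, Tpm2, a tropomyosin (1.01 ± 0.18 SE, limma adjusted p = 0.00326), and Myl9, a myosin light chain (0.52 ± 0.13, adjusted p = 0.0281), and Tpm2 was also higher at 24 h (0.79) and 72 h (0.66). The myoid share called was 25% at 12 h, against 5.35% of all probe sets, and 12.5% at both later times, near the 13.4% of all at 24 h and above the 6.13% at 72 h.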
